A study of Mus musculus with 30 samples.

Results

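The 39 odorant receptor (OR) genes described here lie on chromosome 4 (12 genes) or chromosome 10 (27 genes). They are all OR genes of these chromosomes in the NanoString probe set, out of 564 OR genes in the deposited table. This pair of chromosomes was chosen by the measured values themselves, because most calls in double deletion mice were on the lower side. Every difference between ΔHxΔP mice and wild-type mice, and every difference between wild-type groups that share those mice, is therefore given as a description. Where genes past the limit of a fit are counted in these comparisons, the count was in part fixed by the choice of the chromosomes and tests nothing. Adjusted p values are given only for ΔOlfr7Δ mice against the wild types of the same cartridge and for females against males.

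An OR is a G protein-coupled receptor that binds odorants in the cilia of olfactory sensory neurons. A mature neuron transcribes a single OR gene, from 1 allele, so that the OR RNA of the whole olfactory mucosa reflects how many neurons chose each gene and how much RNA each of them holds. These quantities cannot be told apart in the counts. OR genes sit in clusters, and the H and P elements are enhancers that act in cis on OR genes of chromosome 14 and chromosome 7. The genes of chromosomes 4 and 10 lie on other chromosomes than these elements and than the Olfr7 cluster of chromosome 9.

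RNA of whole olfactory mucosa was counted in 30 mice, each 21 days old, with 1 µg of RNA from 1 mouse per lane. The double homozygous ΔHxΔP mice (ΔP (Berry) x ΔH; 1 female, 5 males) shared cartridge MK29 with 6 wild-type mice of their companion strain (3 females, 3 males). A second wild-type group, the companion of the ΔH strain (4 females, 2 males), was run on MK37, and these 3 groups have a mixed C57BL/6J x 129SvEv background. Cartridge MK38 held 6 homozygous ΔOlfr7Δ mice of the inbred 129SvEv background (2 females, 4 males) and 6 wild-type 129SvEvTac mice (129S6/SvEvTac; 4 females, 2 males). Wild types filled lanes 1 to 6 and mutants lanes 7 to 12 of both cartridges with mutants, and the effects of lane and genotype cannot be told apart. MK37 held no mutant lanes among those used here, so that cartridge and colony cannot be told apart for its mice. The MK38 wild types are labelled as from Charles River Laboratories, Germany, whereas those of MK29 and MK37 are labelled as companion strains. The label of the ΔOlfr7Δ mice names no supplier. On MK38 the source of the mice may thus differ with genotype and cannot be told apart from it.

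Summed raw counts of the OR genes ran from 618163 to 1013430 per lane. A scaled count, the level used below, is a raw count scaled on 6 positive controls and then on the neuronal reference genes Adcy3, Ano2, Cnga2, Gnal and Omp. These defining genes of mature olfactory neurons were counted in every group, the lowest mean being that of Ano2 in MK38 wild types, at 12.6 on the log2 scale. The 8 negative controls gave a background (their mean plus 2 SD) of 32.4 to 56.2 scaled counts per lane. As a check of the labels, 36 of 62 fitted OR genes of chromosome 9 had a median under 100 scaled counts in ΔOlfr7Δ mice. None did in MK38 wild types. In ΔHxΔP mice against MK29 wild types, 5 of the 7 H-marked genes were called lower, with a median difference of -2.45 on the log2 scale. Of the 44 P-marked genes 20 were called lower, and their median difference was -0.13.

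All 39 genes were read in all 30 lanes and passed the filter on low values, a wild-type median of at least 100 counts after background subtraction. The lowest value of any of them in any mouse was 183 scaled counts (Olfr803), above the highest background. By the positions in the study's naming table, for which the sources used here name no build, the 39 genes form 6 groups when neighbours more than 1 Mb apart are separated. On chromosome 4 these are Olfr70 and Olfr71 (43707872 to 43723103), Olfr275, Olfr273, Olfr272 and Olfr270 (52838271 to 52984439), Olfr267 alone (58797651 to 58798592), and Olfr62, Olfr1342, Olfr1341, Olfr1340 and Olfr1339 (118338124 to 118408083). The first 3 groups all carry names of the MOR262 family, and the fourth group is of the MOR258 family; MOR families group ORs by the similarity of their protein sequence. On chromosome 10 a group of 5 spans 78074443 to 78481028, with Olfr1357 (MOR128), Olfr1356 (MOR142) and the MOR139 genes Olfr1353, Olfr1352 and Olfr1351. The other 22 genes lie between 128530090 and 129648184. They are Olfr768, Olfr769, Olfr770, Olfr771, Olfr791 and Olfr794 (MOR114), Olfr788 and Olfr803 (MOR111), Olfr790 and Olfr808 (MOR112), Olfr801, Olfr806, Olfr811 and Olfr812 (MOR110), and 1 gene each of 8 further families (Olfr796, Olfr807, Olfr809, Olfr247, Olfr820, Olfr821, Olfr822 and Olfr827).

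Each gene was read by a capture and a reporter probe that bind next to each other on the RNA, together 91 to 100 bases. The deposited probe sequences are shown for genes on which the comparisons below turn, and for 3 chromosome 10 genes whose capture probes are alike. Capitals mark the longest run shared with any probe of another OR gene in the set.
Olfr811 capture: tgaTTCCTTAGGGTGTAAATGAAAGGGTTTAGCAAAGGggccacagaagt
Olfr801 capture: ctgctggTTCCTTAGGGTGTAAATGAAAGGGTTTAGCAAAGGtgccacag
Olfr808 capture: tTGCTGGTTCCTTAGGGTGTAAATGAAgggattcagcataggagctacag
Olfr811 reporter: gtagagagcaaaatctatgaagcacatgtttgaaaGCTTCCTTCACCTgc
Olfr801 reporter: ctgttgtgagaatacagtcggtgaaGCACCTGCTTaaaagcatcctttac
Olfr808 reporter: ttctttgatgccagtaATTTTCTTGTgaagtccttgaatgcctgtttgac
Olfr270 capture: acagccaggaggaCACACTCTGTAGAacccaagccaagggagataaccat
Olfr270 reporter: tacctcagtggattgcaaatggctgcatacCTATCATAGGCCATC
Olfr794 capture: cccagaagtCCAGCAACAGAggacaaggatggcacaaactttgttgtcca
Olfr794 reporter: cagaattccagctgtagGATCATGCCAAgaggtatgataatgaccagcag
Olfr1340 capture: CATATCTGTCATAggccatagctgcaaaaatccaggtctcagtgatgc
Olfr1340 reporter: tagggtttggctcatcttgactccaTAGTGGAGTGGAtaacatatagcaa
The capture probes of Olfr801 and Olfr811 share a run of 35 bases and those of Olfr801 and Olfr808 a run of 26 bases. Their reporter probes share runs of at most 8 bases with each other. No other gene of the 39 had a shared run over 20 bases, none had one in both probes, and the median over all 78 probes was 12 bases. GC content ran from 34% to 58%.

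The 39 genes spanned a wide range of levels. Over the 18 wild-type mice their median scaled counts ran from 316 to 5042, with a median of 1543, against 1131 over the 549 OR genes read in every lane. The genes of chromosome 10 had a median of 2066 and those of chromosome 4 a median of 1141. Levels of different genes also depend on their probes, so that these values order signals rather than RNA amounts. The highest signals were all in the 22-gene stretch of chromosome 10. Olfr820 had a median of 5042 scaled counts (3642 to 6766 over the 18 mice), Olfr794 one of 4905 (2110 to 5586) and Olfr806 one of 4007 (2354 to 4960). The lowest came from both chromosomes. Olfr803 had a median of 316 (225 to 397), Olfr1341 one of 357 (303 to 413) and Olfr1351 one of 484 (354 to 666). The ranges of the 3 highest overlap each other, as do those of Olfr803 and Olfr1341.

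**Figure D1:**
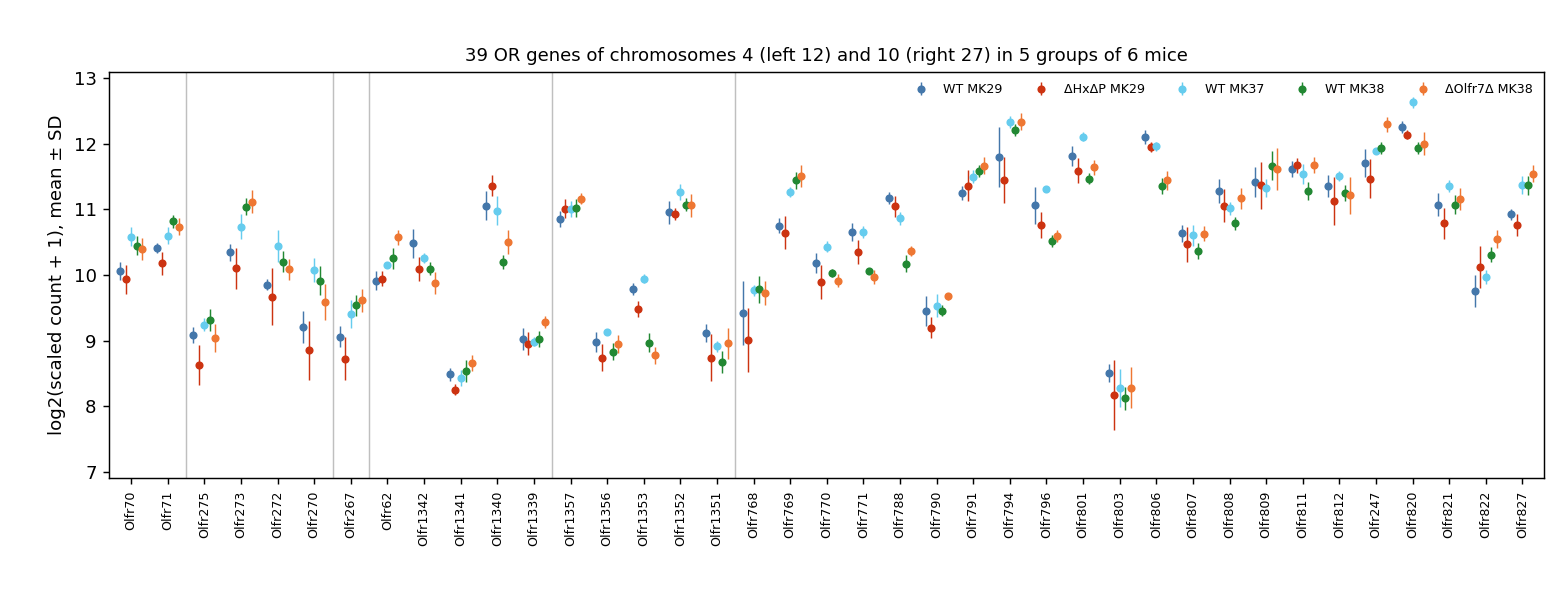
The y axis gives log2(scaled count + 1) as mean ± SD over 6 mice, in 5 groups marked by colour, for the 39 OR genes in chromosome order on the x axis; grey lines separate groups of neighbouring genes. ΔHxΔP mice have the lowest group median for 23 of the 39 genes and the highest for 1, beside 26.8% and 9.47% of all 549 OR genes.

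The group medians of the 39 genes were most often lowest in ΔHxΔP mice. They were lowest there for 23 genes, in MK38 wild types for 10, in MK29 wild types for 3 and in ΔOlfr7Δ mice for 3, and lowest in MK37 wild types for none. Over all 549 OR genes the shares lowest in these groups were 26.8%, 22.4%, 21.1%, 19.5% and 10.2%. The highest group median was in ΔOlfr7Δ mice for 14 genes and in MK37 wild types for 13, beside 33.5% and 28.8% of all 549 OR genes. The rule that chose these chromosomes used the ΔHxΔP values, so nothing is read from this order.

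ΔHxΔP mice were first set against the wild-type mice of the same cartridge, to describe the OR genes that share no chromosome with the deleted elements. Of the 39 genes, 33 had a log2 difference (mean log2(scaled count + 1) of mutants minus that of wild types) below 0, with a median of -0.23 and a range of -0.46 to 0.37. The median of all 553 OR genes fitted was 0.00, that of 383 OR genes outside chromosomes 4, 9, 10 and 14 and the P cluster was 0.03, that of 30 OR genes of chromosome 11 was 0.01, and that of 48 OR genes of chromosomes 13, 16 and 19 was 0.00. As a description, 5 of the 39 were past a Benjamini-Hochberg limit of 0.05 in limma on the lower side (Olfr71, Olfr275, Olfr1342, Olfr771 and Olfr1353) and 1 on the higher side (Olfr1340), beside 17.0% and 9.76% of all OR genes. All OR genes include those of the H and P clusters. Among the 383 OR genes outside chromosomes 4, 9, 10 and 14 and the P cluster the shares were 11% and 9.92%. Since the chromosomes were chosen on such calls, nothing is read from these counts.

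The lowest differences came from several positions. Olfr275 ran from 292 to 551 scaled counts in ΔHxΔP mice (median 383) and from 465 to 596 in the wild types (median 547), a log2 difference of -0.46 (SE 0.13). Of the 6 mutants 5 were below all 6 wild types. Olfr768 ran from 387 to 828 (median 440) in mutants and from 381 to 1072 (median 700) in wild types, a log2 difference of -0.41 (SE 0.23). Its groups overlapped over most of their range, and its SD in the wild types was 0.495 on the log2 scale. Olfr1342, a MOR258 gene, ran from 925 to 1317 (median 1111) against 1087 to 1633 (median 1527), a log2 difference of -0.38 (SE 0.11). Olfr1351 ran from 310 to 641 (median 424) against 509 to 666 (median 542), at -0.38 (SE 0.14). In these genes too the groups overlapped. Olfr270 ran from 317 to 688 (median 480) against 452 to 767 (median 588), at -0.36 (SE 0.18). Olfr794 ran from 2181 to 3977 (median 2635) against 2110 to 5055 (median 3595), at -0.35 (SE 0.19). Both pairs of groups overlapped widely. Only Olfr1353, a MOR139 gene, had mutant values all below the wild-type values, 606 to 761 (median 745) against 799 to 940 (median 899), beside 61 of all 553 OR genes fitted (11%) with such a gap downward and 3.62% upward. No member had its mutants all above the wild types.

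The highest differences were of 3 genes with neighbours that lay below 0. Olfr822 ran from 847 to 1599 scaled counts (median 1094) in mutants and from 681 to 1119 (median 885) in wild types, a log2 difference of 0.37 (SE 0.14). Olfr1340 ran from 2361 to 3047 (median 2530) against 1729 to 2609 (median 2179), at 0.31 (SE 0.10). Its adjacent genes, Olfr1341 and Olfr1339, had differences of -0.23 and -0.07. Olfr1357 ran from 1797 to 2356 (median 2077) against 1625 to 2047 (median 1866), at 0.16 (SE 0.08).

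By family, all 7 MOR262 genes lay below 0, from -0.46 to -0.13 with a median of -0.25. The 5 MOR258 genes were divided, from -0.38 to 0.31, with 3 below 0. Of the 6 MOR114 genes 5 lay below 0, with a median of -0.30. How many genes were past the limit on each side depended on the scaling. On the positive controls alone 1 gene was past the limit on the lower side and 3 on the higher, beside 11.4% and 21.3% of all OR genes. With TMM factors over the OR genes it was 13 and 3, beside 20.6% and 16.8%, and with a median of ratios 9 and 3, beside 18.1% and 19.5%. Leaving out wild-type mouse 2 or 3 left 3 genes past the limit, and leaving out mutant mouse 6 gave 12.

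**Figure D2:**
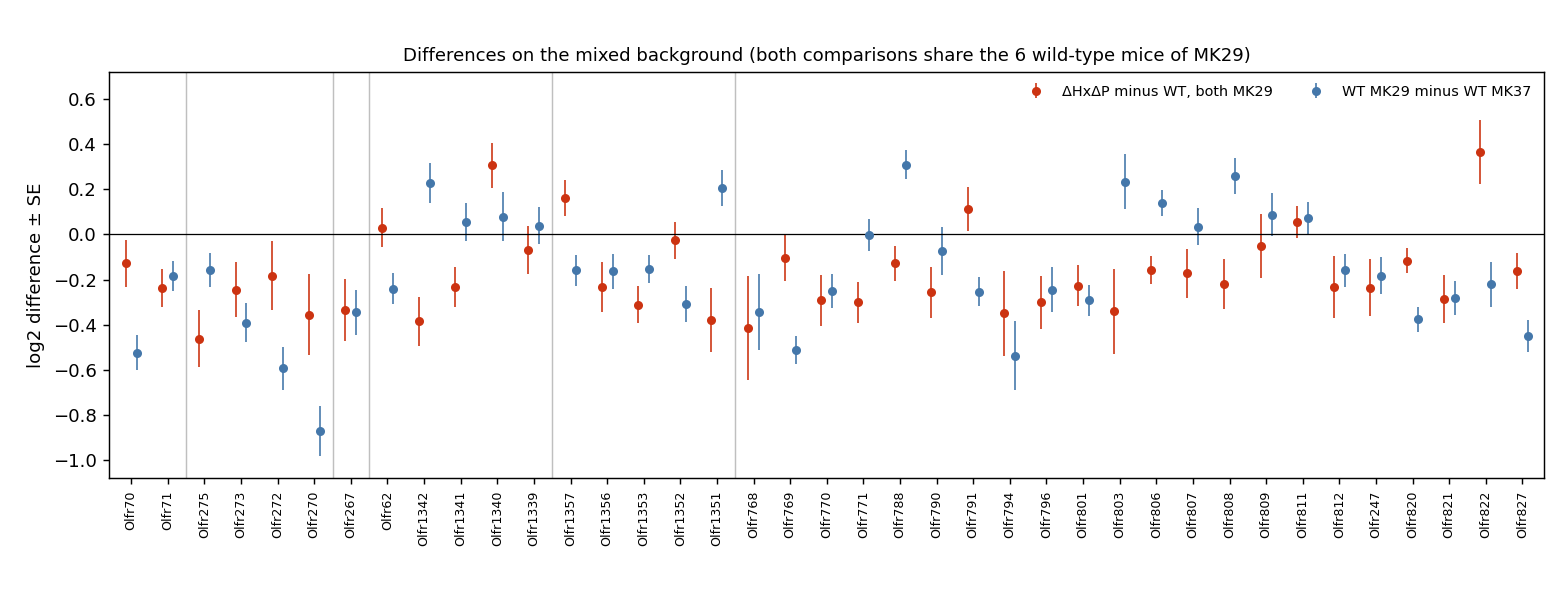
The y axis gives log2 differences ± SE and the x axis the 39 OR genes in chromosome order; red points are ΔHxΔP minus wild type on MK29 and blue points MK29 wild type minus MK37 wild type, with 6 mice in each group. Of the red points 33 lie below 0, and the blue points reach -0.87 at Olfr270, on the scaling used here; the 6 wild-type mice of MK29 enter both.

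Of the settings tried, the choice of wild types gave the highest number of genes past the limit. Against the 6 wild-type mice of MK37 alone, 24 of the 39 genes were past it on the lower side in ΔHxΔP mice and 1 on the higher side, with a median log2 difference of -0.39, beside 32.5% lower and 12.7% higher over all OR genes. Against both wild-type groups together it was again 24 and 1, with a median of -0.30, beside 23.9% and 10.2%. The higher gene was Olfr1340 in all 3 comparisons. These comparisons share the mutant mice on which the chromosomes were chosen and, in part, the controls, so that none supports another.

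The wild-type groups of the mixed background themselves differed at these genes. Between MK29 and MK37 wild types 16 of the 39 were called lower on MK29 and 3 higher, beside 29.3% lower and 10.8% higher over all OR genes. The median was -0.18 for the 39 genes and -0.10 for all OR genes. MOR262 genes had 6 of 7 calls on the lower side, with log2 differences of -0.87 to -0.16. Olfr270 ran from 452 to 767 scaled counts (median 588) in MK29 wild types, against 919 to 1264 (median 1127) on MK37, at -0.87 (SE 0.11). Olfr272 ran from 845 to 993 (median 930) against 1160 to 1718 (median 1396), at -0.59 (SE 0.09). Olfr70 ran from 900 to 1177 (median 1078) against 1286 to 1674 (median 1579), at -0.52 (SE 0.08). In all 3 genes the groups did not overlap, and they lie at 2 positions of chromosome 4. Of the chromosome 10 genes, Olfr769 ran from 1554 to 1883 (median 1721) against 2295 to 2626 (median 2485), at -0.51 (SE 0.06). Olfr794 ran from 2110 to 5055 (median 3595) against 4889 to 5586 (median 5055), at -0.54 (SE 0.15). Olfr769 separated the groups, whereas 1 MK29 mouse reached the MK37 range in Olfr794. The 3 genes called higher on MK29 were Olfr788, Olfr808 and Olfr1351. Other scalings shifted this balance. It was 25 lower and 0 higher on the positive controls alone (38.8% and 5.75% of all OR genes), 13 and 7 with TMM factors (19.4% and 20.5%), and 12 and 7 with a median of ratios (17.1% and 21.4%).

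Between the wild types of MK37 and MK38 the background strain changed with the cartridge and the colony. Of the 39 genes 20 were called higher on MK37 and 5 lower, beside 42.9% higher and 31.2% lower over all OR genes, with a median of 0.16 against 0.06. All 4 MOR110 and all 3 MOR139 genes were called higher on MK37. Olfr1353 ran from 930 to 1049 scaled counts (median 981) on MK37 and from 432 to 579 (median 505) on MK38, a FC of 1.96. Its MOR139 neighbours Olfr1352 and Olfr1351 had log2 differences of 0.19 and 0.23, and Olfr1353 one of 0.97. Olfr796 ran from 2461 to 2671 (median 2517) against 1392 to 1642 (median 1434), a FC of 1.73. Olfr1340 ran from 1751 to 2705 (median 1956) against 1056 to 1280 (median 1168), a FC of 1.72. Olfr820 ran from 5706 to 6766 (median 6421) against 3642 to 4343 (median 3862), a FC of 1.62. The groups did not overlap in any of these 4 genes. They were picked as the 4 largest differences of the 39, and the share of all OR genes without overlap was not counted here. The MOR262 genes lay from -0.31 to 0.24 in this comparison, with 2 called lower and 1 higher. The split of calls was 23 higher and 2 lower on the positive controls alone (47.3% and 21.2% of all OR genes), 17 and 8 with TMM factors (39.2% and 38.0%) and 15 and 10 with a median of ratios (37.6% and 39.2%).

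**Figure D3:**
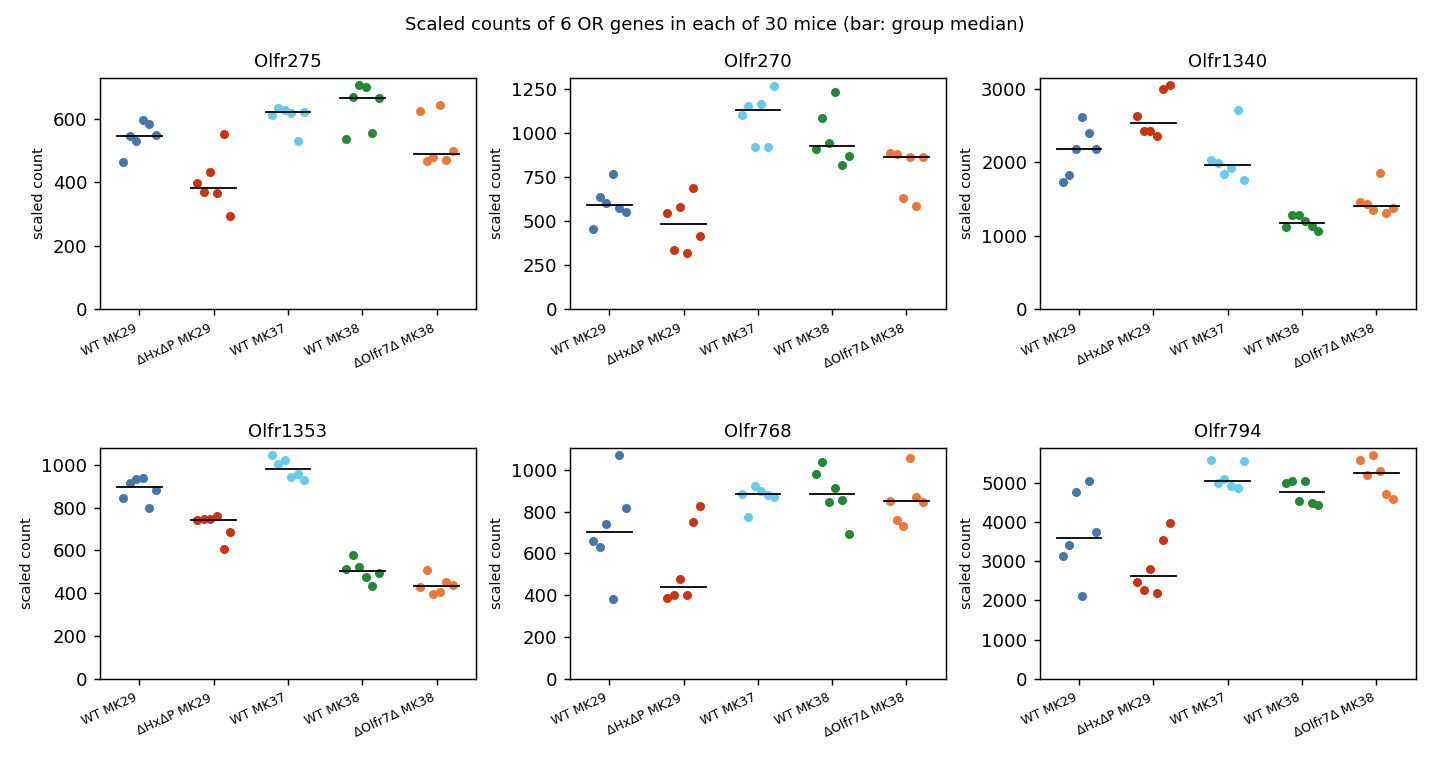
Each panel gives the scaled counts (y axis, from 0) of 1 OR gene in the 6 mice of each of the 5 groups (x axis); bars are group medians. Olfr1353 is separated between all mixed and all 129 mice, Olfr270 is lower on MK29 than on MK37 in every mouse, and Olfr768 and Olfr794 spread widely on MK29. The share of all OR genes separated in these ways was not counted.

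The ΔOlfr7Δ mice give a comparison that the choice of these genes did not use. All mice on MK38 are of the 129 background, and the question is whether OR genes outside the deleted cluster differed from wild type. Lane, and possibly the source of the mice, changed with genotype here. Of the 39 genes limma called 12 higher and 3 lower in ΔOlfr7Δ mice, beside 23.4% higher and 12.1% lower over all 552 OR genes fitted. The shares in the 39 genes were 30.8% and 7.69%, and among 383 OR genes outside chromosomes 4, 9, 10 and 14 and the P cluster they were 24% and 6.53%. The median log2 difference was 0.08 for the 39 genes (SD of the median level between mice 0.08) and 0.06 for all OR genes. The share of calls was near that of the other OR genes, and each change was small, with a FC of at most 1.32.

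Of the 12 genes that rose 8 were in the distal group of chromosome 10, 3 in the MOR258 group of chromosome 4, and 1 was Olfr1351. Olfr811 (MOR110) ran from 2809 to 3517 scaled counts (median 3398) in ΔOlfr7Δ mice and from 2171 to 2853 (median 2495) in wild types, a log2 difference of 0.40 (SE 0.07, adjusted p = 4.95e-05 from limma). Olfr247 ran from 4623 to 5656 (median 4947) against 3539 to 4252 (median 3978), at 0.36 (SE 0.06, adjusted p = 5.17e-05). Olfr808 ran from 1975 to 2636 (median 2255) against 1567 to 1941 (median 1773), at 0.38 (SE 0.07, adjusted p = 0.00014). All mutants were above all wild types in Olfr247 and Olfr808, and Olfr811 overlapped in a narrow range. Olfr801, whose capture probe shares the long runs printed above with both Olfr811 and Olfr808, rose less, with a log2 difference of 0.17 (adjusted p = 0.0333). Olfr807 rose by 0.26 (adjusted p = 0.00452), Olfr822 by 0.23 (adjusted p = 0.0112), Olfr790 by 0.22 (adjusted p = 0.0131) and Olfr788 by 0.18 (adjusted p = 0.0358).

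In the MOR258 group of chromosome 4, 3 of 5 genes rose and 1 fell. Olfr62 ran from 1398 to 1713 scaled counts (median 1486) in ΔOlfr7Δ mice and from 1035 to 1377 (median 1253) in wild types, a log2 difference of 0.32 (adjusted p = 0.00129). Olfr1340 ran from 1313 to 1854 (median 1400) against 1056 to 1280 (median 1168), at 0.31 (adjusted p = 0.00273). Olfr1339 ran from 588 to 702 (median 610) against 450 to 576 (median 522), at 0.26 (adjusted p = 0.00911). None of these 3 genes had overlapping groups. In all, 5 of the 39 genes had mutants above all wild types and none below, beside 11.1% and 7.25% of all OR genes. All OR genes include those of the deleted Olfr7 cluster, so the downward share is not a like measure for the 39 genes. The share without chromosome 9 was not counted. Olfr1342 fell, with a log2 difference of -0.22 (adjusted p = 0.0271), and Olfr1341 did not pass the test at 0.12 (adjusted p = 0.309).

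The other genes that fell were of the MOR262 family. Olfr270 ran from 583 to 885 scaled counts (median 863) in ΔOlfr7Δ mice and from 819 to 1233 (median 925) in wild types, a log2 difference of -0.32 (SE 0.11, adjusted p = 0.0187). Olfr275 ran from 467 to 643 (median 489) against 535 to 708 (median 667), at -0.27 (adjusted p = 0.0258). The groups overlapped in both. The other 5 MOR262 genes did not pass the test and lay between -0.12 and 0.08. In the 5-gene group of chromosome 10 only Olfr1351 was called, at 0.28 (adjusted p = 0.032), and Olfr1353 missed the limit at -0.19 (adjusted p = 0.0715). Of the 6 MOR114 genes none was called; the widest 95% interval among them was that of Olfr768, from -0.24 to 0.13 on the log2 scale.

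The direction of all 15 calls was the same under every alternative scaling tried, but their number was not. On the positive controls alone 24 genes were called higher and 0 lower, beside 51.3% and 7.43% of all OR genes, whose median moved to 0.24. With TMM factors 9 were higher and 5 lower, beside 21.0% and 15.4%, and with a median of ratios 9 and 6, beside 19.6% and 18.5%. With each mouse left out in turn, Olfr275, Olfr1351 and Olfr788 were called in 6 of 12 fits. Olfr801 and Olfr1342 were called in 7 of them and Olfr270 in 10. The other called genes were called in all 12. Among the reference genes behind the scaling, Ano2 had a log2 difference of 0.13, Cnga2 one of -0.09 and Omp one of -0.06 after scaling (exact two-sided permutation tests over 6 against 6 mice, p = 0.00216, 0.0108 and 0.00866). In ΔHxΔP mice against MK29 wild types the largest such difference was that of Ano2, at -0.09. It was -0.13 for Adcy3 in MK29 against MK37 wild types and 0.19 for Ano2 in MK37 against MK38 wild types. The part of the reference genes in the calls was not tested.

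**Figure D4:**
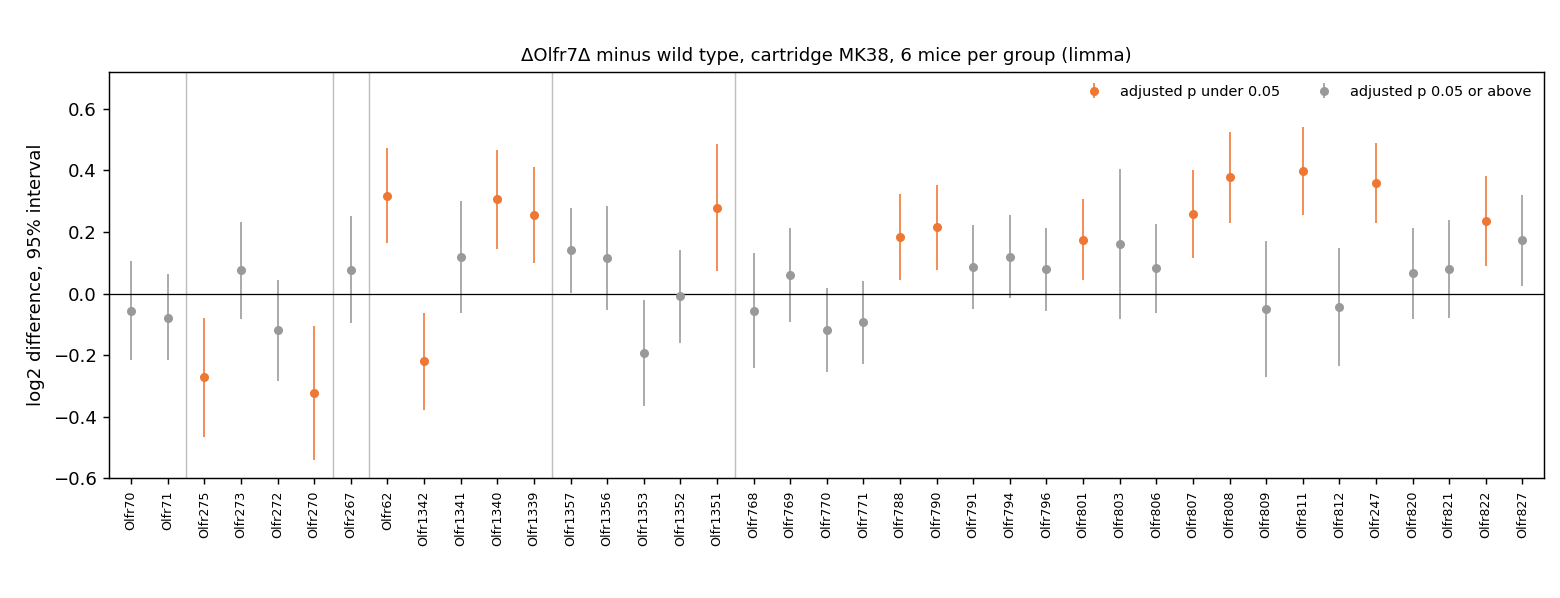
The y axis gives the log2 difference, ΔOlfr7Δ minus wild type on MK38 (6 mice each), with its 95% interval from limma, and the x axis the 39 OR genes in chromosome order; orange marks adjusted p under 0.05. On this scaling 12 orange points lie above 0 and 3 below.

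None of the 39 genes was called between females and males in limma over all 30 mice with the group as a covariate, beside 0.0% of all 549 OR genes in either direction. Log2 differences of females minus males ran from -0.10 (Olfr1342) to 0.09 (Olfr808), with a median of 0.03. At an unadjusted p of 0.05, 0 of the 39 genes and 26 of the 549 passed. The smallest p among the 39 was that of Olfr820, at 0.08 (95% interval -0.003 to 0.169, adjusted p = 0.814).

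The spread between mice was widest in ΔHxΔP mice, for these genes as for all OR genes. The median SD of log2 values over the 39 genes was 0.22 in ΔHxΔP mice and 0.14 in MK29 wild types. It was 0.10 in those of MK37, 0.12 in those of MK38 and 0.14 in ΔOlfr7Δ mice. Over the 549 OR genes these medians were 0.18, 0.14, 0.12, 0.11 and 0.14, in the same order. The most variable genes in mixed wild types were Olfr768 (SD 0.36, pooled over both groups), Olfr794 (0.33) and Olfr803 (0.23). Olfr768 and Olfr794 varied in MK29 wild types (SD 0.495 and 0.458) but little in those of MK37 (0.09 and 0.09).

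The same mice were high or low in both genes. In MK29 wild types, mouse 4 had the lowest counts, 381 for Olfr768 and 2110 for Olfr794, and mouse 5 the highest, 1072 and 5055. Among ΔHxΔP mice, mouse 5 had 750 and 3536 and mouse 6 had 828 and 3977, above the other 4 mice, which ran from 387 to 479 and from 2181 to 2796. Over the 18 mixed mice, as deviations from their group means, the pair had a Pearson r of 0.92. In the 12 mice of the 129 background it was 0.24. These and the following correlations share lanes and scaling and are descriptions.

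The MOR262 genes varied together between mice in both backgrounds, and the other groups of neighbours did so less. In mixed mice the median r was 0.82 over the 6 pairs among Olfr275, Olfr273, Olfr272 and Olfr270, and 0.79 for these 4 with Olfr267, which lies alone. It was 0.56 for them with Olfr70 and Olfr71, and 0.71 over all 21 MOR262 pairs. Between MOR262 and MOR258 genes of the same chromosome it was 0.05, and between chromosomes 4 and 10 it was 0.14. The 22 distal genes of chromosome 10 had a median r of 0.57 over 231 pairs, but the 5 proximal genes had 0.03 over 10 pairs, below their 0.23 with the distal genes. The 6 MOR114 genes among the distal genes had 0.69 over 15 pairs, close to the MOR262 value. The 5 MOR258 genes had 0.24 over 10 pairs, close to their 0.25 with the distal genes of chromosome 10. For OR genes that are not among the 39, pairs within 1 Mb had a median r of 0.39 and pairs on different chromosomes 0.19. In 129 mice MOR262 pairs had a median r of 0.73, MOR114 pairs 0.50, the distal chromosome 10 pairs 0.29, and pairs between the chromosomes 0.30. Pairs of MOR262 with MOR258 genes had 0.41 in these mice. Pairs of OR genes that are not among the 39 had 0.395 within 1 Mb and 0.17 on different chromosomes.

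Taken as the geometric mean of their 7 scaled counts in each mouse, the MOR262 genes ran from 566 to 923 in ΔHxΔP mice (median 689) and from 727 to 934 (median 854) in MK29 wild types. They ran from 988 to 1298 (median 1167) on MK37, from 1026 to 1352 (median 1145) in MK38 wild types and from 919 to 1248 (median 1072) in ΔOlfr7Δ mice. All 12 mice of MK29 were below all 6 of MK37. Of the ΔHxΔP mice, 3 (mice 1, 3 and 5) were within the range of the MK29 wild types and 3 were below it. The MOR258 genes of the same chromosome ran from 793 to 933 in ΔHxΔP mice, from 803 to 972 in MK29 wild types and from 831 to 932 on MK37, and these ranges overlapped.

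**Figure D5:**
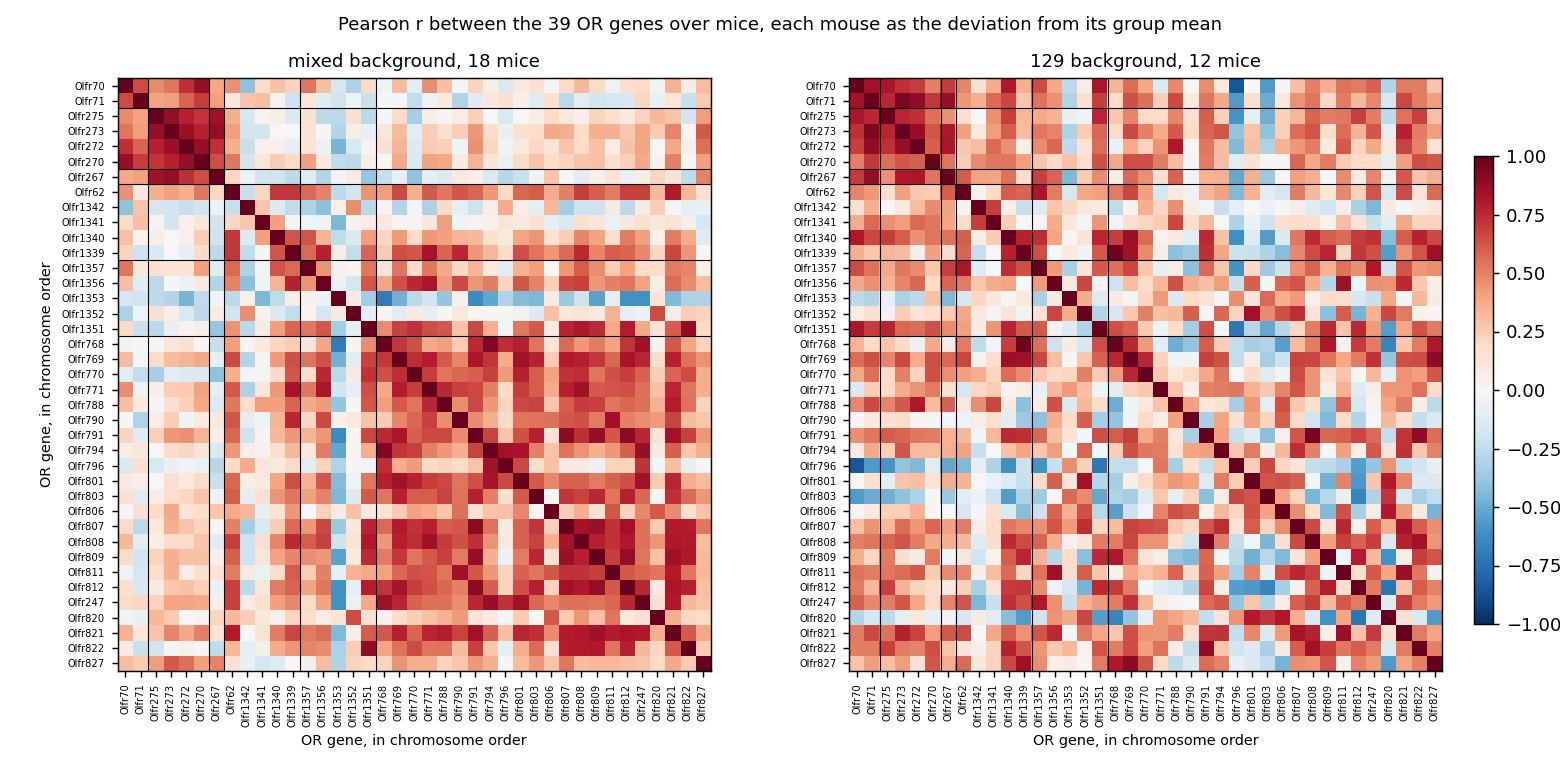
Each square is the Pearson r (colour, -1 to 1) between 2 of the 39 OR genes, in chromosome order on both axes, over 18 mixed mice (left) or 12 mice of the 129 background (right), with each mouse as its deviation from the group mean. Black lines separate neighbouring groups; the MOR262 block at the upper left is red in both panels, and the distal chromosome 10 block is more uniform on the left, with medians of 0.57 and 0.29.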

How the data were processed

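Raw nCounter counts of 1 custom probe set were deposited by the authors for 30 mice, without normalization, as digital counts of hybridised probe pairs; since the deposited file mixes header lines with counts, the unit was recorded as another kind of value and count models were not applied. RNA was not amplified, so that a count is a molecule read, and intervals cover the spread between mice. Counts were scaled on the geometric mean of 6 positive controls and then of 5 reference genes over all lanes. The mean plus 2 SD of 8 negative controls set the background, which in the main fits was subtracted only for the filter (a wild-type median of at least 100). The background alternative and tTREAT used subtracted counts. log2(scaled count + 1) of all OR genes that passed was fitted with limma 3.58.1 (R 4.3.3) with a mean-variance trend and Benjamini-Hochberg adjustment at 0.05; differences are on that scale. Tables and figures were made with Python 3.11.15, pandas 2.3.3, numpy 2.4.6 and matplotlib 3.10.9. The fit was also run on simulated data, and no outcome of that run is given or used here.

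Groups came from the labels, by which replicates are separate mice. The genes, lists and tests were chosen with earlier results of these data known. Values by group were given for the 6 lowest and 3 highest differences of ΔHxΔP mice, up to 10 called genes of smallest p in ΔOlfr7Δ mice, the 5 and 4 largest differences between wild types, the 3 highest and lowest levels and the 3 largest SDs. Positions and MOR names came from the study's OR table. Alternatives changed the scaling, background, filter, pseudocount (20), sex covariate, wild types, test or mice.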

Additional observations from a re-analysis of the deposited data

Results flagged for a closer look

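In 11 of the 195 sets of 6 mice (39 genes in 5 groups, 5.64%) 1 mouse stood apart from the other 5, where chance gives about 1 in 20. MK29 wild-type mouse 1 was lowest in Olfr273 (1085 scaled counts, the next being 1298), Olfr62 (799, next 951) and Olfr790 (514, next 694). MK37 wild-type mouse 5 was lowest in Olfr275 (531, next 611) and Olfr273 (1335, next 1694) and highest in Olfr1340 (2705, next 2024). MK37 wild-type mouse 2 was lowest in Olfr768 (772, next 871). ΔOlfr7Δ mouse 4 was highest in Olfr70 (1686, next 1342) and Olfr1340 (1854, next 1461) and lowest in Olfr796 (1361, next 1538). ΔHxΔP mouse 6 was highest in Olfr1339 (624, next 502).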

How the results depend on the processing

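In ΔHxΔP mice against MK29 wild types, 6 genes were called (5 lower, 1 higher). TMM factors gave 16 (13 and 3), a median of ratios 12 (9 and 3), and the positive controls alone 4 (1 and 3). tTREAT on background-subtracted counts, against a fold of 1.3 at an unadjusted p of 0.01, gave 0. The main limma fit, with no subtraction and no fold threshold, had 17 at an unadjusted p of 0.05. MK37 wild types, or both wild-type groups, gave 25 calls. Leaving out each mouse gave 3 to 12 calls, and medians of -0.25 to -0.18; the median was -0.39 against MK37 wild types. In ΔOlfr7Δ mice 15 genes were called (3 lower, 12 higher). The positive controls alone gave 24, with a median of 0.26 in place of 0.08. The same tTREAT gave 0; limma, with no fold threshold, had 18 at an unadjusted p of 0.05. Leaving out each mouse gave 11 to 15 calls, and medians of 0.07 to 0.12. Between MK29 and MK37 wild types tTREAT gave 1 call in place of 19, and between MK37 and MK38 wild types 8 in place of 25. Calls by sex were 0 under every alternative run. The cause of these shifts was not tested. Among 470 values of single named genes 422 stayed on their side of the limit, 29 lost the call and 19 gained it, and none that was called changed sign. The planned edgeR and DESeq2 fits were not run. No paired analysis was possible because replicate numbers name mice in accession order and pair none. With 6 mice a group and 1 lane each, spread between lanes and between mice cannot be told apart.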
